A study of Mus musculus with 24 samples.

Results

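The interleukin 1 (IL-1) family was examined in mouse kidney through 10 genes listed by symbol, out of 54532 gene identifiers in the count tables: the agonists Il1a, Il1b, Il33, Il18 and Il1f6 (interleukin 36 alpha), the receptor antagonist Il1rn, and the receptors Il1r1, Il1rl1, Il1rl2 and Il18r1. The study sequenced RNA from whole kidney of mice lacking the endocytic receptor gene Lrp2 in the proximal tubule and of wild-type littermates. Of the 24 libraries, 6 came from wild type and 6 from knockout after 2 weeks of a Western type diet, and 6 of each genotype came from mice fed that diet for 12 weeks. The labels write the genotypes as PTC LRP2-SM22 +/+ and -/-. The tissue restriction of the deletion is taken from the series record; the sources used here give neither the meaning of SM22 nor the Cre driver, strain, sex or age. All 4 groups received the Western diet, so no group shows kidney on another diet.

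IL-1 family cytokines are made by epithelial, stromal and myeloid cells and act as early signals of tissue damage and infection. Each agonist binds its own receptor chain (Il1r1 for IL-1 alpha and beta, Il1rl1, also called ST2, for IL-33, Il1rl2 for the IL-36 cytokines, Il18r1 for IL-18), a second chain is recruited, and the complex signals through MyD88 and IRAK kinases to NF-kappa-B. The receptor antagonist occupies Il1r1 without signalling. In kidney, IL-33 and IL-1 alpha are known as alarmins released from damaged cells, and IL-1 beta and IL-18 need proteolytic cleavage that RNA does not report.

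The promoters of 4 agonist and antagonist genes are shown because 3 of these genes were higher in knockout kidney at both durations (Il1b, Il1rn and Il33) and 1 was not called at either (Il18). Each is the 250 bases before a RefSeq transcript start on GRCm38.p6, 5′ to 3′ on the gene's strand. Capitals mark matches on either strand to 3 motifs: a loose form of the NF-kappa-B site (GGG and CC with any 5 bases between), TGANTCA, the AP-1 site, and TATAAA, the TATA box.
Il1b, chr2:129371140-129371389, minus strand: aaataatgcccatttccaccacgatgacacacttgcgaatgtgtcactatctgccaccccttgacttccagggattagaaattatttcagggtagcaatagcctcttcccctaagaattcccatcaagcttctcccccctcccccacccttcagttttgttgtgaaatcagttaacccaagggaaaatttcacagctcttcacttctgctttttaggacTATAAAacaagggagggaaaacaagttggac
Il1rn, first of 3 starts, chr2:24336610-24336859, plus strand: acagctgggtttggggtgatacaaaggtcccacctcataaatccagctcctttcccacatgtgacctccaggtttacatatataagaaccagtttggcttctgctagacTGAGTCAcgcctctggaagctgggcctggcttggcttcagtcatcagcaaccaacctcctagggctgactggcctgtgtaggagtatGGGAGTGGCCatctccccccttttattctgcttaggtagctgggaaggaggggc
Il33, second of 2 starts, chr19:29945540-29945789, plus strand, inside the gene: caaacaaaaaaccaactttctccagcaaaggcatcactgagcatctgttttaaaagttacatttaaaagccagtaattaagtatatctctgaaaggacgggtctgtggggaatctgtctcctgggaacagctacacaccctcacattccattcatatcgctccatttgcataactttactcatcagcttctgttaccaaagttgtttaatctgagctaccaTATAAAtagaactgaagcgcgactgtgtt
Il18, chr9:50554450-50554699, plus strand: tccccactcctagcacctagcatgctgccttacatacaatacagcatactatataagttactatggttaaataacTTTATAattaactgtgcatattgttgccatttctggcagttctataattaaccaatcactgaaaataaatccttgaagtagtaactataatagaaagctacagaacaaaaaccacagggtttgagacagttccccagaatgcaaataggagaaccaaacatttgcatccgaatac
Counted back from the start, Il1b has TATAAA at bases -31 to -26 and the printed start of Il33 has it at -29 to -24. The match before the first start of Il33, which is not printed, lies at -203 to -198, and that in Il18 at -175 to -170. Il1rn has no TATAAA and holds TGANTCA at -141 to -135 and the loose NF-kappa-B site at -54 to -45. Il1a, which is not printed, has TATAAA at -32 to -27 and TGANTCA at -12 to -6. Promoters were found for 9 of the 10 genes, with 16 starts in all; Il1f6 had no entry. Of these 16 starts, 4 held the loose NF-kappa-B site, 2 held TGANTCA and 6 held TATAAA. Among 32851 promoters of the same length, 45.8% held the loose NF-kappa-B site, 6.75% held TGANTCA and 12.4% held TATAAA. These are matches of letters and do not show binding.

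Assigned reads per library ranged from 15.6 M to 34.1 M at 2 weeks and from 11.3 M to 15.2 M at 12 weeks. CPM are counts per 1 M reads of library size after TMM scaling. Lrp2 averaged 2000 CPM in wild type and 352 CPM in knockout at 2 weeks, and 1880 and 323 CPM at 12 weeks. The genotypes did not overlap at either time. Proximal tubule markers such as Slc34a1 and Cubn made up 19200 to 42000 CPM in every library, so the RNA carried the defining genes of kidney. The labels do not say that each library came from a separate animal, and the p-values cover only the variation among these libraries, which may be technical. The 2-week and 12-week files carry different name series and differ in depth, and 124 of 16855 genes averaging at least 0.5 CPM at 2 weeks had 0 counts in all 12 libraries of 12 weeks. In the other direction this held for 37 of 16756 genes, among them Med10, at 19.7 to 28.3 CPM at 12 weeks and 0 at 2 weeks. Diet duration and library set therefore cannot be told apart, and differences between durations carry that limit. This check and its 0.5 CPM limit were chosen after the data were seen.

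Of the 10 genes, 9 had enough counts to be tested, and 8 of the 9 were higher in knockout kidney at 2 weeks, as was the same number at 12 weeks. The share of all 17286 tested genes called higher was 18.2% at 2 weeks and 20.7% at 12 weeks. None of the 9 was lower at either duration, against 13.4% and 17.7% of all tested genes, and Il18 was the gene that did not pass the test. In those 8 genes every knockout library was above every wild-type library at 2 weeks and again at 12 weeks, a separation seen in 10.3% and 10.1% of all tested genes. The median log2 difference of the 9 was 1.99 at 2 weeks and 2.09 at 12 weeks, against -0.01 and 0.0 over all tested genes. These counts and medians depend in part on the count filter. Il1f6 and Il1rn passed it only through their knockout libraries, and Il1a, which overlapped between genotypes at 2 weeks, did not pass. The 10 genes were also chosen with earlier results of these data known, so the counts are a description. A call means an adjusted p under 0.05 in edgeR's quasi-likelihood test. In whole kidney, a change in the number of cells of a type and a change of RNA per cell cannot be told apart.

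**Figure D1:**
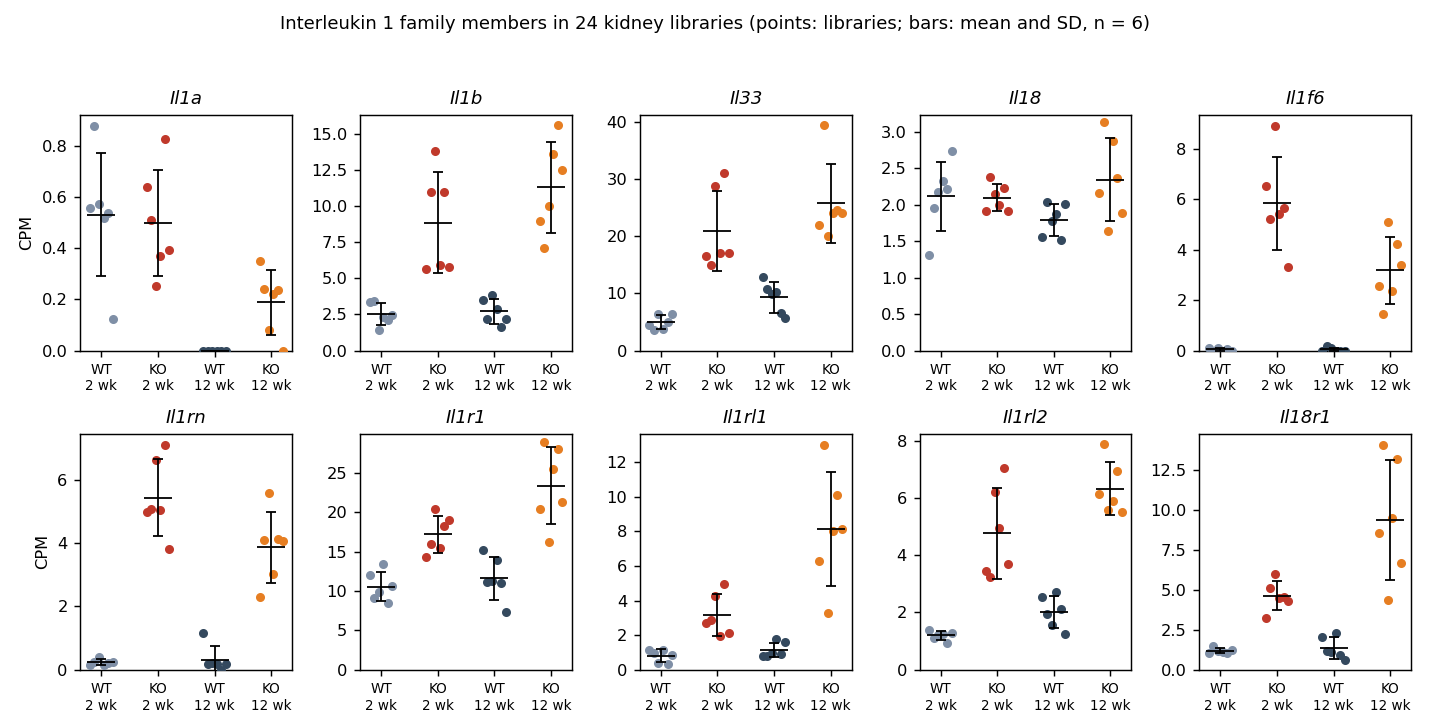
CPM of each of the 10 genes in each of the 24 libraries (points), by genotype and weeks of Western diet, with the mean and SD of 6 libraries as bars; each panel has its own linear axis from 0. Knockout points lie above all wild-type points at both durations for 8 genes, overlap with them for Il18, and for Il1a overlap at 2 weeks, with all 6 wild-type libraries of 12 weeks at 0.

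Il1b and Il33 were the agonists with the most RNA per length in knockout kidney after 12 weeks, and both were higher in knockout than in wild type at both durations. Il1b (chr2:129364570-129371139, minus strand) encodes IL-1 beta, the secreted agonist made mainly by activated myeloid cells. At 2 weeks it ranged from 1.40 to 3.46 CPM in wild type (median 2.40) and from 5.64 to 13.8 CPM in knockout (median 8.46). At 12 weeks it ranged from 1.62 to 3.84 CPM (median 2.55) and from 7.08 to 15.6 CPM (median 11.3). The lowest knockout library was above the highest wild-type library each time, and the 2-week knockout libraries fell into 3 near 6 CPM and 3 above 10 CPM in the plot of values by library. The log2 difference in Il1b was 1.81 (SE 0.27, 3.52-fold, edgeR adjusted p = 7.2e-05) at 2 weeks and 2.09 (SE 0.23, 4.25-fold, edgeR adjusted p = 1.4e-05) at 12 weeks. Only 25 of 1907 exon bases (1.31%) overlap the antisense gene Il1bos, which had 60 to 63 counts per group at 2 weeks and 31 to 32 at 12 weeks, so its counts did not follow genotype.

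Il33 (chr19:29925114-29960718, plus strand) encodes a nuclear alarmin of stromal, endothelial and epithelial cells. After 2 weeks of diet it ranged from 3.61 to 6.40 CPM in wild type (median 4.74) and from 15 to 31.1 CPM in knockout (median 17.0). After 12 weeks they were 5.61 to 12.8 CPM (median 10.1) and 20 to 39.4 CPM (median 24.1). Wild type itself was higher at 12 than at 2 weeks, and the genotypes stayed separate at each time. The log2 difference between genotypes was 2.12 (SE 0.22, 4.35-fold, edgeR adjusted p = 3.8e-06) at 2 weeks and 1.5 (SE 0.20, 2.82-fold, edgeR adjusted p = 0.00011) at 12 weeks.

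Il1f6 (chr2:24215418-24225702, plus strand), which encodes the epithelial cytokine IL-36 alpha, was nearly without reads in wild type. The 6 wild-type libraries of 2 weeks held 7 counts in all, with 3 libraries at 0, and the knockout libraries held 772 counts and ranged from 3.31 to 8.91 CPM (median 5.54). At 12 weeks wild type held 3 counts, with 4 libraries at 0, and knockout held 268 counts at 1.45 to 5.09 CPM (median 2.99). No wild-type library exceeded 0.177 CPM, so the lowest knockout library was far above all of them. The ratio of pooled knockout to pooled wild-type CPM was 108 at 2 weeks (exact 95% interval of the counts 52.4 to 271) and 68.8 at 12 weeks (23.3 to 336); these intervals cover counting error only. The fitted log2 difference was 6.63 (SE 0.41, edgeR adjusted p = 3.1e-09) at 2 weeks and 5.84 (SE 0.56, edgeR adjusted p = 4e-06) at 12 weeks. Because so few wild-type reads carry it, 1 library moved the size: it was 7.24 without wild-type replicate 1 at 2 weeks and 6.81 without wild-type replicate 2 at 12 weeks, and the calls held.

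Il18 (chr9:50554827-50581840, plus strand), the interferon-gamma-inducing cytokine made by tubular epithelium and macrophages, had overlapping levels in all 4 groups. In the 2-week libraries it ranged from 1.31 to 2.73 CPM in wild type (median 2.20) and from 1.91 to 2.38 CPM in knockout (median 2.07). In the 12-week libraries they were 1.52 to 2.04 CPM (median 1.82) and 1.64 to 3.14 CPM (median 2.26). The genotypes overlapped at both times. The log2 difference was 0.03 (SE 0.19, edgeR adjusted p = 0.939) at 2 weeks and 0.41 (SE 0.20, edgeR adjusted p = 0.128) at 12 weeks.

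Il1a (chr2:129299610-129309972, minus strand), the IL-1 alpha alarmin, had too few counts to enter the main test. At 2 weeks it ranged from 0.124 to 0.877 CPM in wild type (69 counts in all) and from 0.253 to 0.828 CPM in knockout (64 counts), and the genotypes overlapped. At 12 weeks all 6 wild-type libraries were at 0, and the knockout libraries ranged from 0 to 0.349 CPM (16 counts in all). Fitted without the filter on low counts, where 12.3% of genes were called higher in knockout at 12 weeks, Il1a had an edgeR adjusted p of 0.925 at 2 weeks and 0.012 at 12 weeks. Wild type of 12 weeks was set to a limit of 3 counts over its 6 libraries. The pooled knockout level of 12 weeks was 4.11-fold above that limit, and the pooled wild-type level of 2 weeks 11.7-fold above it. These folds take the 16 and 69 counts as exact and leave out variation among libraries. Between durations in wild type the edgeR adjusted p was 5.85e-06, in a fit that called 10.3% of genes lower at 12 weeks. Among genes averaging at least 0.5 CPM in wild type of 2 weeks, 206 of 16601 likewise had 0 counts in wild type of 12 weeks. Gm14023, on the opposite strand, overlaps 222 of 1974 exon bases of Il1a (11.2%), and it had 144, 129, 71 and 90 counts in wild type and knockout of 2 weeks and wild type and knockout of 12 weeks. The sources used here do not say whether counting used strand, so reads of the overlapped bases cannot be assigned with certainty.

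Il1rn (chr2:24336853-24351494, plus strand) encodes the IL-1 receptor antagonist and had the highest fold difference among the 8 called genes after Il1f6. After 2 weeks of diet it ranged from 0.139 to 0.416 CPM in wild type (median 0.222) and from 3.81 to 7.09 CPM in knockout (median 5.07). After 12 weeks they were 0 to 1.17 CPM (median 0.182) and 2.30 to 5.58 CPM (median 4.08). The genotypes did not overlap, and 1 wild-type library of 12 weeks, at 1.17 CPM, stood above the other 5, which reached 0.197 CPM. The log2 difference was 4.58 (SE 0.26, 24-fold, edgeR adjusted p = 1.3e-09) at 2 weeks and 3.61 (SE 0.49, 12.2-fold, edgeR adjusted p = 8.2e-05) at 12 weeks; without that wild-type library, replicate 1, it was 4.64 at 12 weeks.

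**Figure D2:**
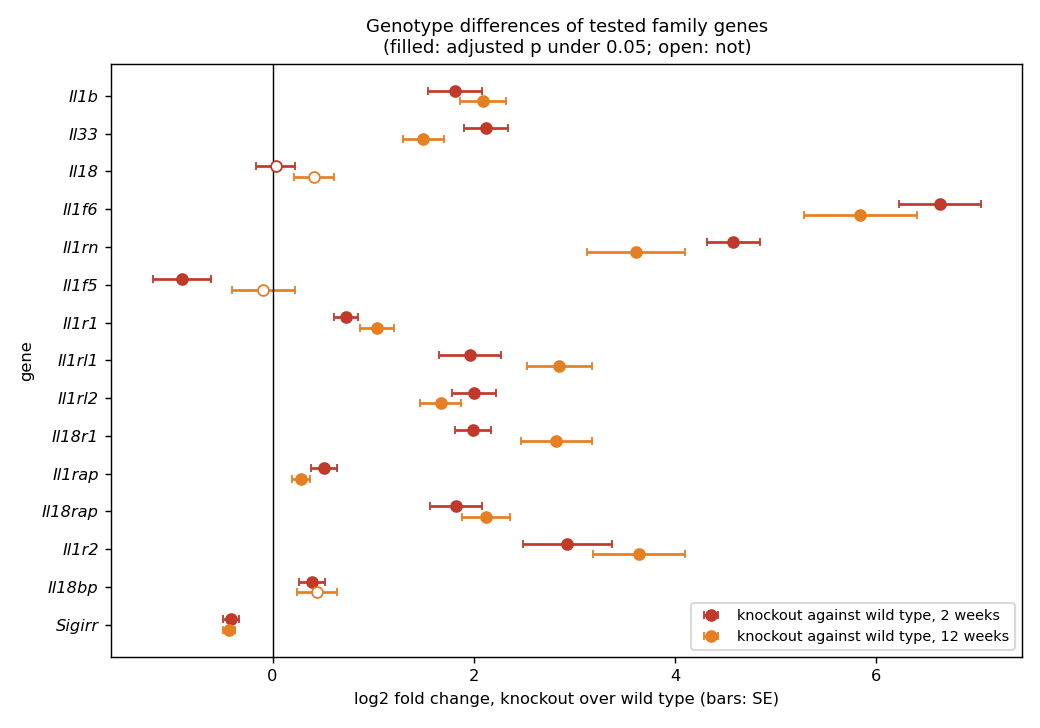
Log2 difference between knockout and wild type (horizontal axis, bars are SE) for the 15 tested genes of the family at 2 and 12 weeks of diet; filled points passed an adjusted p of 0.05. Il1f6 lies farthest to the right at both durations, followed by Il1rn at 2 weeks and by Il1r2 (3.64) and Il1rn (3.61) at 12 weeks; Il18 stays near 0 with open points, and Sigirr lies to the left of 0 at both durations.

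All 4 receptor genes among the 10 rose in knockout kidney at both durations. Il1r1 (chr1:40225080-40317257, plus strand), the signalling receptor of IL-1 alpha and beta, moved least. In the 2-week libraries it ranged from 8.45 to 13.4 CPM in wild type (median 10.2) and from 14.3 to 20.4 CPM in knockout (median 17.2). In the 12-week libraries they were 7.29 to 15.2 CPM (median 11.2) and 16.3 to 28.9 CPM (median 23.4). The genotypes came close without overlapping. The log2 difference was 0.73 (SE 0.12, 1.66-fold, edgeR adjusted p = 0.00016) at 2 weeks and 1.04 (SE 0.17, 2.05-fold, edgeR adjusted p = 0.00037) at 12 weeks.

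Il1rl1 (chr1:40429570-40465415, plus strand) encodes the IL-33 receptor ST2, carried by regulatory T cells, type 2 innate lymphoid cells and mast cells, and a soluble form that binds IL-33 as a decoy; counts per gene do not separate these forms. At 2 weeks it ranged from 0.335 to 1.14 CPM in wild type (median 0.922) and from 1.95 to 4.97 CPM in knockout (median 2.81). At 12 weeks the ranges were 0.781 to 1.77 CPM (median 0.949) and 3.28 to 13 CPM (median 8.06). Knockout libraries were all above wild type and spread widely at 12 weeks. The log2 difference was 1.96 (SE 0.31, 3.88-fold, edgeR adjusted p = 0.0001) at 2 weeks and 2.85 (SE 0.32, 7.20-fold, edgeR adjusted p = 1.6e-05) at 12 weeks.

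Il18r1 (chr1:40465552-40500854, plus strand), the ligand-binding chain of the IL-18 receptor found on T and natural killer cells, rose at both durations, while its ligand gene Il18 was not called at either. After 2 weeks of diet it ranged from 1.03 to 1.46 CPM in wild type (median 1.17) and from 3.26 to 6 CPM in knockout (median 4.53). After 12 weeks they were 0.586 to 2.33 CPM (median 1.12) and 4.35 to 14.1 CPM (median 9.03). The knockout libraries of 12 weeks covered the widest span of the 4 groups and stayed above wild type. The log2 difference was 1.99 (SE 0.18, 3.96-fold, edgeR adjusted p = 2.3e-07) at 2 weeks and 2.82 (SE 0.35, 7.06-fold, edgeR adjusted p = 4.2e-05) at 12 weeks.

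Il1rl2 (chr1:40324610-40367562, plus strand), the receptor of the IL-36 cytokines, rose alongside its ligand gene Il1f6. In the 2-week libraries it ranged from 0.939 to 1.39 CPM in wild type (median 1.22) and from 3.23 to 7.04 CPM in knockout (median 4.33). In the 12-week libraries they were 1.26 to 2.71 CPM (median 2.04) and 5.51 to 7.89 CPM (median 6.01). Genotypes were apart at both times. The log2 difference was 2.00 (SE 0.22, 4.01-fold, edgeR adjusted p = 2e-06) at 2 weeks and 1.67 (SE 0.20, 3.18-fold, edgeR adjusted p = 2.1e-05) at 12 weeks.

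The receptor genes lie in 1 row on the plus strand of chromosome 1, in the order Il1r2, Il1r1, Il1rl2, Il1rl1, Il18r1 and Il18rap. All 6 were higher in knockout at both durations, as were 18.2% of all tested genes at 2 weeks and 20.7% at 12 weeks. Il18r1 begins 136 bases after the end of Il1rl1, and Il1rl2 begins 7352 bases after Il1r1. Il1r2 (chr1:40074079-40125231), a decoy receptor that binds IL-1 without signalling, had 18 counts over the 6 wild-type and 137 over the 6 knockout libraries at 2 weeks, and 5 and 89 at 12 weeks. It passed the count filter only through its knockout libraries. Its log2 difference was 2.93 (SE 0.44, edgeR adjusted p = 4.9e-05) at 2 weeks and 3.64 (SE 0.46, edgeR adjusted p = 3.9e-05) at 12 weeks, the highest of the row by fold at each time. Il18rap (chr1:40515362-40551705), the signalling partner of Il18r1, ranged from 0.465 to 1.12 CPM in wild type and from 1.64 to 3.29 CPM in knockout at 2 weeks, and from 0.531 to 1.32 CPM and 3.45 to 5.55 CPM at 12 weeks. These groups did not overlap, with log2 differences of 1.82 (edgeR adjusted p = 2.9e-05) and 2.12 (edgeR adjusted p = 1.5e-05). The protein-coding neighbours on either side were examined after the receptor values were known. Map4k4, before Il1r2, had log2 differences of 0.48 (edgeR adjusted p = 8.5e-05) and 0.63 (edgeR adjusted p = 0.00011). Slc9a4, after Il18rap, had 0.48 (edgeR adjusted p = 0.102) and 1.47 (edgeR adjusted p = 4.8e-05), the latter above the 1.04 of Il1r1, and Slc9a2 beyond it had -0.44 (edgeR adjusted p = 0.00058) and -0.51 (edgeR adjusted p = 0.0006).

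**Figure D3:**
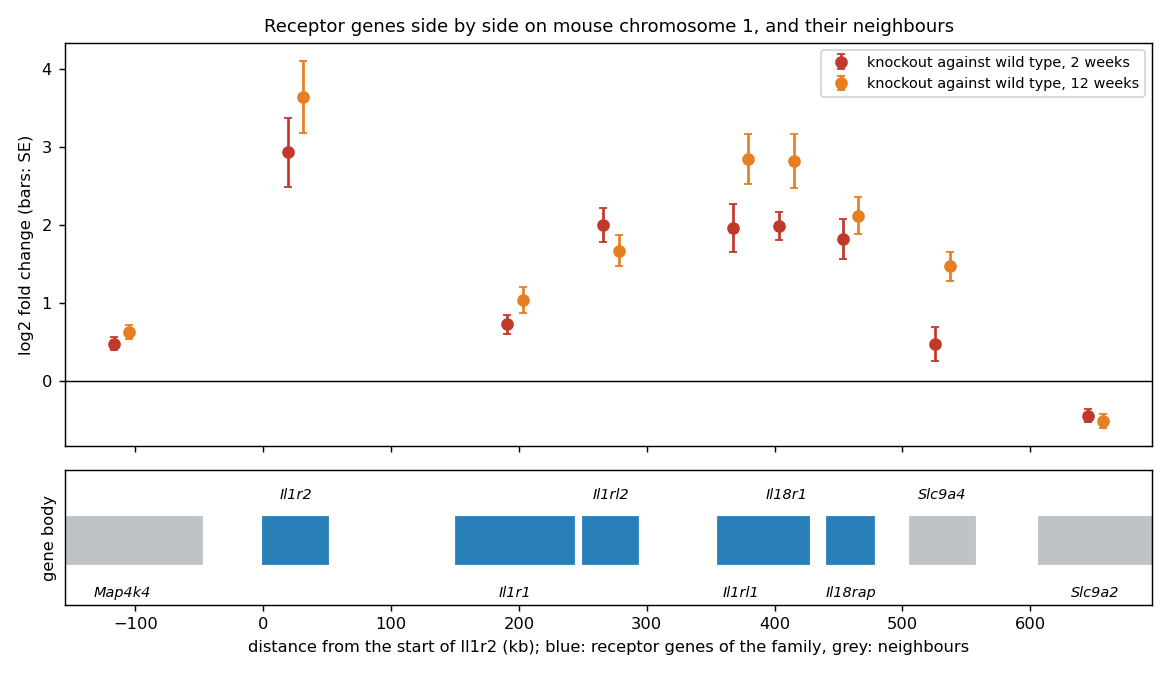
Log2 difference between knockout and wild type (top, bars are SE) for the receptor genes on chromosome 1 and their neighbours, placed at their distance in kilobases from the start of Il1r2, with gene bodies below. All 6 receptor genes (blue) lie above 0 at both durations. So do the neighbours Map4k4 and Slc9a4, and the neighbour Slc9a2 lies below 0.

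Il1f6 and Il1rn share a region of chromosome 2 with the other IL-36 and related genes, and these did not all move with them. Il1f9 (IL-36 gamma) fell under the count filter, with 6 counts in wild type and 48 in knockout at 2 weeks and 3 and 29 at 12 weeks. The pooled ratio for Il1f9 was 7.87 (exact 95% interval 3.36 to 22.5) and 7.45 (2.31 to 38.2), and the fit without the filter gave edgeR adjusted p-values of 0.00466 and 0.0136, with 10% and 12.3% of genes called higher. Il1f5, the IL-36 receptor antagonist, was lower in knockout at 2 weeks, at 0.408 against 0.781 CPM on average (log2 difference -0.90, edgeR adjusted p = 0.0217; -0.83 and no longer called without wild-type replicate 2), and did not pass at 12 weeks (-0.09, edgeR adjusted p = 0.852). The antagonist of the IL-36 receptor therefore had the opposite sign to its agonist gene Il1f6 at 2 weeks, on 98 and 52 counts per group. Il1f8 had 1 count over all 24 libraries and Il1f10 had 2 in wild type of 2 weeks, 2 in knockout of 12 weeks and 0 elsewhere. Psd4, the next gene after Il1rn, was also higher in knockout, with log2 differences of 1.38 (edgeR adjusted p = 2.8e-05) and 2.13 (edgeR adjusted p = 0.00105).

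Among the remaining receptors and binding proteins of the family, changes were smaller. Il1rap, the shared second chain of the IL-1, IL-33 and IL-36 receptors, averaged 6.96 CPM in wild type and 9.76 CPM in knockout at 2 weeks (log2 difference 0.51, edgeR adjusted p = 0.00444) and 10.1 and 12.1 CPM at 12 weeks (0.28, edgeR adjusted p = 0.0205; 0.26 and not called without knockout replicate 5). Il18bp, the secreted inhibitor of IL-18, had log2 differences of 0.39 (edgeR adjusted p = 0.0245) and 0.44 (edgeR adjusted p = 0.0886). The 2-week call of Il18bp was lost without knockout replicate 4 (0.34) or wild-type replicate 3 (0.33) or 4 (0.36), and its 12-week value passed without wild-type replicate 4 (0.57). Sigirr, an inhibitory receptor of epithelial cells, fell in knockout from 88.8 to 65.5 CPM at 2 weeks and from 75.7 to 55.2 CPM at 12 weeks, without overlap (log2 differences -0.41, edgeR adjusted p = 0.00051, and -0.43, edgeR adjusted p = 0.00012). Of the neuronal receptors, Il1rapl1 had at most 8 counts in any group and Il1rapl2 had none. In all, 6 of these 11 further family genes were tested, of which 4 were higher and 2 lower at 2 weeks, and 3 higher and 1 lower at 12 weeks. The shares of all tested genes were 18.2% higher and 13.4% lower at 2 weeks, and 20.7% and 17.7% at 12 weeks.

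Levels of different genes were set side by side only as CPM per kilobase of exon, and the order of the 10 genes was not the same in the 2 genotypes. The length was the union of all annotated exons of a gene, which can exceed the length of any single transcript. In wild type of 2 weeks Il18 averaged 2.05 CPM per kilobase, Il33 1.71, Il1r1 1.66 and Il1b 1.33. The ranges of these neighbours in the order overlapped, and a gap separated Il1b from Il1a at 0.269. Il1f6 at 0.0533 and Il1rn at 0.0422 came last there. In knockout of 2 weeks Il33 averaged 7.24 CPM per kilobase and Il1f6 6.61, followed by Il1b at 4.64, Il1r1 at 2.71 and Il18 at 2.03. Il1f6 thus stood in place 9 in wild type and place 2 in knockout, though its range in knockout overlapped those of Il33 and Il1b. In knockout of 12 weeks Il33 (8.91), Il1b (5.92), Il1r1 (3.68) and Il1f6 (3.61) led, again with overlapping neighbours, and Il1rn averaged 0.698 CPM per kilobase. In wild type of 12 weeks Il33 led with 3.22, ahead of Il1r1 at 1.83, Il18 at 1.74 and Il1b at 1.42, and these ranges overlapped too.

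**Figure D4:**
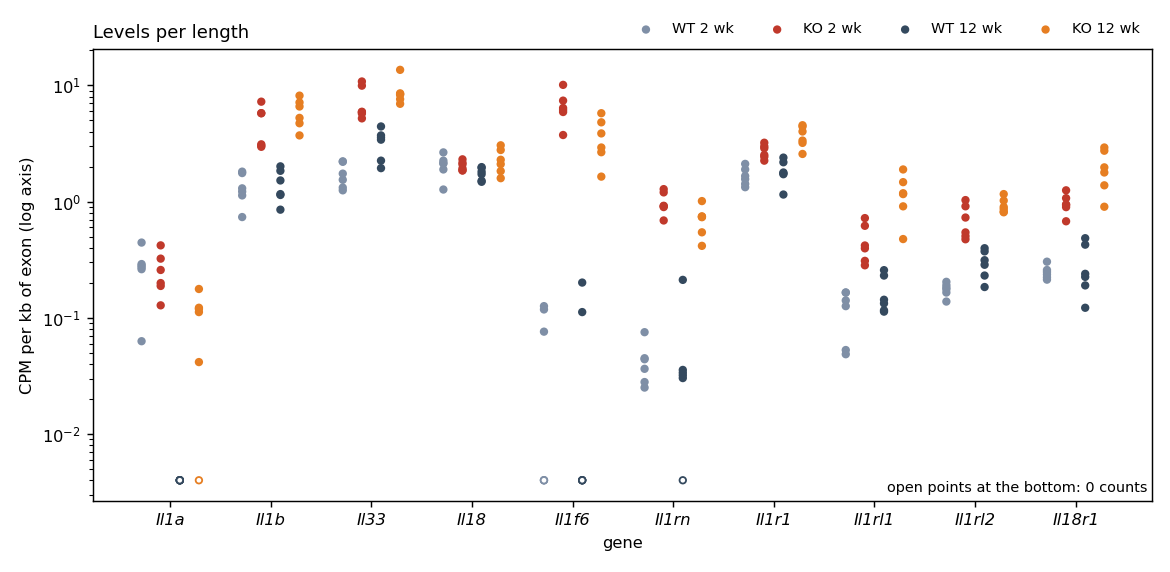
CPM per kilobase of exon of the 10 genes in each of the 24 libraries, on a log axis; open points at the bottom stand for libraries with 0 counts. Il1f6 and Il1rn lie near the bottom in both wild-type groups and above 0.4 CPM per kilobase in all knockout libraries, whereas Il18 keeps to 1.27 to 3.05 throughout.

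Ratios of inhibitor to agonist, and of ligand to receptor, were formed within each library from these per-length values and are given without a test. Il1rn over the sum of Il1a and Il1b had a median of 0.0228 in wild type (0.0123 to 0.0733) and 0.21 in knockout (0.153 to 0.277) at 2 weeks. At 12 weeks it was 0.0244 (0 to 0.115) and 0.101 (0.0752 to 0.193). By this measure antagonist RNA was below agonist RNA in every library, and the genotypes were apart at 2 weeks and overlapped at 12 weeks. The exon union is 5535 bases for Il1rn, 1907 for Il1b and 1974 for Il1a. If shorter Il1rn transcripts were in use, its level per length would be higher, and this was not tested. The decoy ratio of Il1r2 over Il1r1 had medians of 0.0428 in wild type and 0.185 in knockout at 2 weeks, and 0.0219 and 0.165 at 12 weeks. Il18bp over Il18 had medians of 0.84 and 1.20 at 2 weeks and 0.751 and 0.754 at 12 weeks. Il33 over Il1rl1 was 13.4 and 15.5 at 2 weeks and 20.4 and 7.2 at 12 weeks, where knockout ranged from 5.81 to 14.6 and wild type from 8.42 to 39.1.

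**Figure D5:**
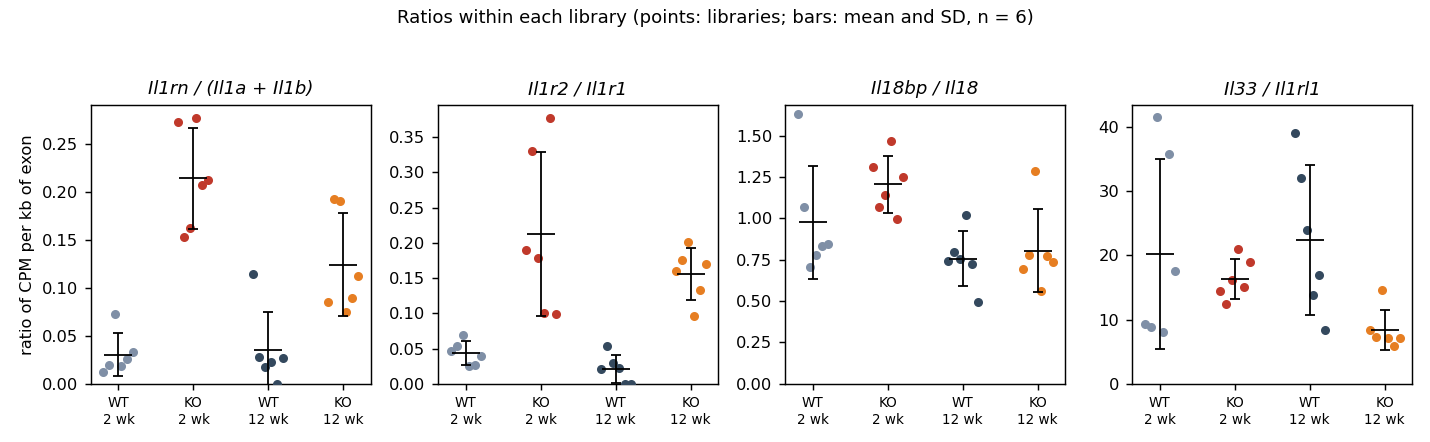
Ratio of CPM per kilobase of exon between 2 genes (or 1 gene and the sum of 2) in each library (points), by genotype and weeks of diet, with the mean and SD of 6 libraries as bars. Il1r2 over Il1r1 is higher in all knockout libraries at both durations. Il1rn over its agonists is so at 2 weeks and overlaps between genotypes at 12 weeks. Il18bp over Il18 overlaps between genotypes, and Il33 over Il1rl1 is lowest on average in knockout of 12 weeks.

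The question whether the genotype difference depended on the time on diet was put as an interaction over all 24 libraries. None of the 9 tested genes passed in edgeR, where 0.174% of all genes did, and 1 of them had an unadjusted p under 0.05. DESeq2 also called 0 of the 9. The lowest p was that of Il18r1, whose genotype difference was larger at 12 weeks by 0.84 on the log2 scale (SE 0.38, edgeR adjusted p = 0.435). The next was Il33, with the opposite sign, at -0.62 (SE 0.31, edgeR adjusted p = 0.493). Il1rl1 followed at 0.90 (SE 0.47, edgeR adjusted p = 0.509), and for Il1rn the point estimate was -0.95 (SE 0.60, edgeR adjusted p = 0.596). These values do not show that the genotype difference was the same at both times.

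Within knockout, 3 genes were higher at 12 than at 2 weeks, where 17.7% of all genes were, and 1 was lower, where 16.1% were. Il1rl1 rose by 1.37 (SE 0.29, edgeR adjusted p = 0.00068), Il18r1 by 1.02 (SE 0.24, edgeR adjusted p = 0.00156) and Il1r1 by 0.44 (SE 0.15, edgeR adjusted p = 0.0219) on the log2 scale. Il1f6 fell by 0.87 (SE 0.30, edgeR adjusted p = 0.0248). The ranges of the 2 durations overlapped for all 4, and without knockout replicate 2 of 12 weeks 2 of the 4 calls were left, those of Il1rl1 and Il18r1. Il1f6 was then -0.73 and Il1r1 0.37. The call of Il1f6 was also lost without knockout replicate 4 of 12 weeks (-0.80) or replicate 3 of 2 weeks (-0.71), and that of Il1r1 without replicate 5 of 12 weeks (0.38) or replicates 1, 2 or 4 of 2 weeks (0.39 to 0.41). Il1rl2 passed only without replicate 5 of 2 weeks (0.55). Within wild type, Il33 rose by 0.92 (SE 0.23, edgeR adjusted p = 0.00419) and Il1rl2 by 0.74 (SE 0.22, edgeR adjusted p = 0.0123), where 15.8% of all genes were higher and 14.7% lower at 12 weeks.

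The pathway around these cytokines was described through lists of known genes. Beside their counts, 18.2% of all tested genes were called higher and 13.4% lower at 2 weeks, and 20.7% and 17.7% at 12 weeks. In these lists and the cell type markers below, a gene with few wild-type reads could pass the count filter through its knockout libraries. The counts and medians of a list therefore depend in part on that filter. Of 16 tested genes for processing and release of IL-1 family cytokines, 13 were higher and 1 lower in knockout at 2 weeks (median log2 difference 1.07), and 12 higher and 2 lower at 12 weeks (median 1.38); the medians over all genes were -0.01 and 0.0. Casp4, an inflammatory caspase, rose by 2.56 and 2.41 on the log2 scale (edgeR adjusted p = 4.4e-08 and 9.7e-06). Ctss, a lysosomal protease able to cleave IL-36 gamma, rose by 2.57 and 2.46 (edgeR adjusted p = 5.1e-06 and 0.00017). P2rx7, the ATP-gated channel that triggers IL-1 beta release, rose by 1.40 at 2 weeks (edgeR adjusted p = 1.2e-05), and Panx1, an ATP release channel, by 2.07 and 1.96 (edgeR adjusted p = 1.5e-06 and 0.00032). Elane and Ctsg, neutrophil serine proteases of the same list, did not reach the count filter, with at most 0.0886 and 0.177 CPM in a library.

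Over all tested genes, 18.2% were called higher and 13.4% lower at 2 weeks, and 20.7% and 17.7% at 12 weeks. Of 22 genes of IL-1 receptor signalling, all tested, 8 were higher and 3 lower at 2 weeks and 7 higher and 5 lower at 12 weeks. The medians of the list were -0.02 and -0.04, close to the -0.01 and 0.0 of all genes. The higher ones included the adaptor Myd88 (log2 0.78, edgeR adjusted p = 3.1e-06, at 2 weeks; 0.60, 7.4e-05, at 12 weeks) and the NF-kappa-B subunit Nfkb2 (1.33, edgeR adjusted p = 2.4e-08; 1.37, 1.9e-06). Nfkb1 rose by 0.62 and 0.84 (edgeR adjusted p = 1.4e-06 and 4.1e-05). Of the kinases, Irak4 (0.50 and 0.47, edgeR adjusted p = 0.00025 and 0.0115) and Irak3, which lacks kinase activity and restrains the pathway (1.20 and 1.44, edgeR adjusted p = 7.9e-05 and 0.00029), were higher. Chuk, Mapk14 and the ubiquitin ligase Peli2 were lower at both times.

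Of 20 tested genes that IL-1 and IL-36 are known to induce, 19 were higher and 1 lower at 2 weeks (median 2.71), and 18 higher and 1 lower at 12 weeks (median 2.18). The shares of all tested genes were 18.2% and 20.7% higher, and 13.4% and 17.7% lower. Sod2 was the lower gene of the list at both times, at -0.39 and -0.44 (edgeR adjusted p = 0.00026 and 0.00307). Lif, a cytokine of the interleukin 6 family, rose by 4.39 and 2.95 (edgeR adjusted p = 9.8e-10 and 4.2e-07). Cxcl2, a neutrophil chemokine with no more than 0.124 CPM in wild type of 2 weeks, had a log2 difference of 7.09 there (edgeR adjusted p = 2.5e-09), which was 7.71 or 7.75 without wild-type replicate 4 or 6. Vcam1 and Lcn2 belong both to this list and to the tubule injury markers. These genes answer to other cytokines too, so their counts do not single out IL-1 or IL-36. Csf2, Csf3, Il17c and Il23a stayed under the count filter, which genes with few wild-type reads could pass through knockout libraries. The counts and medians of the list depend in part on that filter.

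For IL-33, the list of type 2 cells and their products had 10 of 15 genes tested, of which 7 were higher at 2 weeks and 6 at 12 weeks, with none lower (medians 1.38 and 2.17). Those that moved included the chemokines Ccl17 and Ccl22, products of macrophages and dendritic cells, and Foxp3, the transcription factor of regulatory T cells. Ccl22 rose by 2.63 at 2 weeks and 3.38 at 12 weeks (edgeR adjusted p = 3.6e-05 and 1.8e-05). Il5, Il13, Areg and Ptgdr2, defining products and receptors of type 2 lymphoid cells, stayed under the count filter, and no library exceeded 0.492 CPM for any of them. Il4 ranged from 1.45 to 3.28 CPM over the 2-week libraries with no call for genotype (log2 difference 0.26, edgeR adjusted p = 0.385) and had 0 counts in all libraries of 12 weeks. It is among the 124 genes described above with 0 counts at 12 weeks, and duration and library set cannot be told apart for it. For IL-18, the list of responding T and natural killer cells had 7 of 12 genes tested, of which 5 were higher at each duration and none lower (medians 0.79 and 1.61). For both lists, the shares of all tested genes were 18.2% and 20.7% higher, and 13.4% and 17.7% lower. Their counts and medians depend in part on the count filter, which genes with few wild-type reads could pass through knockout libraries. Ifng, the main product of IL-18 signalling, was under the filter with at most 0.483 CPM in a library.

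Markers of several cell types moved with these genes. Of all tested genes, 18.2% were higher and 13.4% lower in knockout at 2 weeks, and 20.7% and 17.7% at 12 weeks. All 12 macrophage and monocyte markers were higher in knockout at 2 weeks and 11 of 12 at 12 weeks; their summed level was 132 to 185 CPM in wild type and 416 to 1030 CPM in knockout at 2 weeks, and 140 to 351 and 617 to 1280 CPM at 12 weeks. Fibroblast and pericyte markers were higher for 7 of 8 and 8 of 8 genes, with sums of 125 to 182 and 503 to 1380 CPM at 2 weeks and 116 to 410 and 550 to 1460 CPM at 12 weeks. Proximal tubule injury markers rose for 8 of 8 genes each time, from 577 to 820 CPM to 5820 to 11900 CPM at 2 weeks and from 458 to 615 CPM to 2860 to 6020 CPM at 12 weeks. Spp1 made up most of these sums. It averaged 492 CPM in wild type and 8550 CPM in knockout at 2 weeks, and 367 and 2880 CPM at 12 weeks. The part of these cell types in the cytokine and receptor differences was not tested. Neutrophil markers were higher for the 4 tested of 9, with sums of 3.74 to 9.44 and 11.5 to 25.3 CPM at 2 weeks and 1.73 to 6.06 and 6.76 to 16.4 CPM at 12 weeks. Ly6g, the defining neutrophil marker, had at most 0.0833 CPM in any library. Genes with few wild-type reads, such as Cxcr2 (0.0948 CPM on average in wild type of 12 weeks), could pass the filter through knockout libraries. Mast cell and basophil markers were tested for 2 of 8 genes, with none higher; Cpa3, Fcer1a, Cma1, Mcpt4, Tpsb2 and Mcpt8 were under the filter, and none of these exceeded 0.373 CPM in a library. Endothelial markers were higher for none of 8 and lower for 2 at 2 weeks and 3 at 12 weeks. Of 9 proximal tubule markers, 6 were lower at 2 weeks and 8 at 12 weeks.

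After removal of the 4 group means, the genes varied together across the 24 libraries to different degrees. These correlations describe 24 libraries that share their preparation, depth and tissue make-up. Il1r1 and Il18r1 had r = 0.79, Il1r1 and Il1rl2 had 0.69, and Il33 and Il1rl2 had 0.69, whereas Il1b and Il33 had 0.18 and Il1f6 and its receptor Il1rl2 had -0.05. Il1r1 followed the summed fibroblast markers with r = 0.83 and urothelial and squamous markers with 0.76. Its 3 most similar of 13522 genes were Gsn (0.89), Abi3bp (0.88) and Apcdd1 (0.87). Il33 followed macrophage (0.71) and fibroblast markers (0.68), with Cped1 (0.87) and Ecm2 (0.85) among the closest. Il1b followed the 4 tested neutrophil markers with r = 0.71, tubule injury markers with 0.5, macrophage markers with 0.49 and podocyte markers with 0.46. Its closest genes were Cebpg (0.75), Snhg6 (0.72) and Mmp9 (0.71). Il1f6 followed tubule injury markers (0.68), principal cell markers (0.6) and the 2 tested mast cell and basophil markers (0.47), and not macrophage markers (-0.1). Of the 6 principal cell markers, none was higher in knockout. At 2 weeks 1 was lower and at 12 weeks 4 were, against 13.4% and 17.7% of all tested genes. Kit, of the mast cell list, was lower at 2 weeks (log2 difference -0.38). The closest genes to Il1f6 were Rps27a-ps2 (0.74), Spata33 (0.73) and Havcr1 (0.71), the tubule injury marker KIM-1. Which cells carry Il1f6 was not tested. The nearest genes to Il1rn were Msr1 (0.77), Tifa (0.76) and C3 (0.74). For Il1rl1 they were Dnase1l1 (0.77), Bend4 (0.76) and Plgrkt (0.76), and for Il18r1 they were Lpcat1 (0.84), Cdk17 (0.84) and Myadm (0.83). Il18r1 followed macrophage and urothelial markers with 0.71 each. Proximal tubule markers went the other way for Il1r1 (-0.71), Il1rl2 (-0.68), Il33 (-0.64) and Il18r1 (-0.63). Il1rl2 was nearest to Csmd1 (0.81), Rab31 (0.8) and Thy1 (0.79), and Il18 to Golim4 (0.74), Gnb1 (0.73) and Wars (0.71).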

How the data were processed

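RNA-seq of 24 mouse kidney libraries gave whole-number read counts per Ensembl gene, deposited by the authors as 1 file per library without normalization. The submitters' processing notes name fastp, STAR 2.5, HTSeq 0.6.1 and mm10; their options, the strand setting and the annotation release are not in the sources used here. Of 54532 identifiers, 54495 matched GENCODE M21; the other 37 hold at most 0.00528% of a library's counts. Groups follow the sample labels. The members and gene lists were chosen with earlier results of these data known.

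Genes passing filterByExpr over the 4 groups (minimum count 10, total 15; 17286 genes) were tested two-sided with robust quasi-likelihood fits in edgeR 4.0.16 (R 4.3.3) after TMM scaling, adjusting p by Benjamini-Hochberg over all of them, with separate fits for each duration and all 24 libraries for the interaction and duration contrasts. The SE is the log2 difference over the square root of F. CPM uses TMM library sizes, and residual correlations use log2 CPM with a prior count of 2. Self-tests ran on simulated counts. Alternatives were DESeq2 1.42.0, other scalings and filters, the replicate block, 1 fit of all libraries and each library left out. Same-numbered wild-type and knockout libraries did not deviate together (r = -0.1 to 0.17) and were not paired in the main fits. Low correlations cannot exclude a pairing. Named from each list were up to 4 called genes with the smallest adjusted p per genotype comparison, plus genes chosen after their values were seen: the lower genes, Irak3, Irak4, Il4, the list genes under the filter, Med10 and the chromosomal and antisense neighbours. Likeness names the 3 genes of highest r with a mean of at least 1 CPM; 1 of these genes is not reported here. Limits for a count of 0 use 3 counts over the group. Intervals of count ratios are exact (Clopper-Pearson, 95%). Promoters come from RefSeq (GRCm38.p6).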

Additional observations from a re-analysis of the deposited data

Results flagged for a closer look

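Among 39 groups of 6 libraries in which a member gene varied, 2 held a library far from the other 5 by Dixon's criterion, which chance alone meets in about 1 of 20 groups. Il1rn was 1.17 CPM in wild-type replicate 1 of 12 weeks, against 0 to 0.197 CPM in the other 5. That library also had the highest summed macrophage and monocyte markers of its group (351 CPM). Il33 was 39.4 CPM in knockout replicate 2 of 12 weeks, against 20 to 24.6 CPM in the other 5. The same library had the highest macrophage (1280 CPM) and fibroblast (1460 CPM) sums and the lowest proximal tubule sum (19200 CPM) of its group. The part of these cells was not tested.

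Foxp3, the transcription factor of regulatory T cells, a cell type that can carry the IL-33 receptor, was the 1 gene of the cytokine, signalling and target lists whose genotype difference depended on duration. The difference was larger at 12 weeks by 4.10 on the log2 scale (SE 0.73, edgeR adjusted p = 0.00776). It had 52 counts over 6 wild-type and 120 over 6 knockout libraries at 2 weeks, and 8 and 432 at 12 weeks. At 12 weeks the log2 difference was 5.31, and 5.96 without wild-type replicate 2. Flicr, on the same strand, overlaps 853 of 4577 exon bases of Foxp3 (18.6%). Ccdc22, Gm36995 and Ppp1r3f overlap further bases on the opposite strand (12.9%, 8.15% and 5.81%). Reads of the overlapped bases cannot be assigned with certainty. Duration and library set cannot be told apart here.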

How the results depend on the processing

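The 8 genotype calls among the member genes at 2 weeks, and the 8 at 12 weeks, held under every alternative run: DESeq2, 2 other scalings, 2 other filters, all 24 libraries in 1 fit, the replicate block and each library left out. With the replicate block, 8 members were called at each duration, and 5103 genes in all at 2 weeks and 5950 at 12 weeks. The interaction called 30 genes in all, 133 with DESeq2 and 22 to 56 over the fits without 1 library, the highest without knockout replicate 3 of 12 weeks; the cause was not tested. The calls of members between durations in knockout, 4 of 9, ranged from 2 to 5 with 1 library left out, the lowest without knockout replicate 2 of 12 weeks and the highest without knockout replicate 5 of 2 weeks. Values of genes that were not called changed sign in places. Il18 at 2 weeks was -0.0039 in 1 fit of all libraries and -0.0048 to -0.09 without single libraries. Between durations in wild type, with single libraries left out, Il18r1 ranged from -0.06 to 0.34, Il1b from -0.04 to 0.19, Il1rn from -0.61 to 0.69 and Il1f6 from -1.23 to 0.38. The interaction ranged from -1.27 to 0.35 for Il1f6, the highest without wild-type replicate 2 of 12 weeks, and from -1.19 to 0.1 for Il1rn, the highest without wild-type replicate 1 of 12 weeks. Il1f5 at 12 weeks ranged from -0.23 to 0.11, the highest without wild-type replicate 2. The 2-week call of Il1f5 was lost without the filter, with the replicate block (-0.88) and without wild-type replicate 2 (-0.83); that of Il18bp was lost in 1 fit of all libraries (0.36), without the filter (0.38) and without 3 single libraries, and its 12-week value passed in 1 fit of all libraries (0.41). That of Il1rap at 12 weeks was lost in 1 fit of all libraries (0.25), without the filter (0.28) and without knockout replicate 5 (0.26). Wild-type levels of Il1f6, Il1rn, Il1r2 and Il1a rest on few reads, which limits the size of their folds.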
